A study of Mus musculus with 5 samples.

Results

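Clec1b, Clec4g, Clec1a, Clec14a and Clec2d are genes for C-type lectins and lectin-like proteins, and their messenger RNA was examined in lymphatic endothelial cells (LECs) of mouse lymph nodes. These 5 genes were chosen by name, with the podoplanin receptor gene Clec1b among them, from the 27843 genes of a table of raw read counts that also holds 25 other Clec genes. Both groups were C57BL/6 mice of 8 weeks. The 3 control libraries came from littermates carrying Rankl flox/flox. The 2 knockout libraries came from mice that carried Ccl19 Cre in addition to Rankl flox/flox, a stromal deletion of RANKL, so both groups had the floxed alleles. RANKL is the cytokine encoded by Tnfsf11, and Cre from the Ccl19 promoter acts in the Ccl19-expressing stroma of the node rather than being aimed at the LECs themselves. The cells were sorted as CD45-negative, TER119-negative, CD31-positive and podoplanin-positive. The labels do not state how many mice went into a library, so the p-values measure the spread between these 5 libraries.

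C-type lectins share a fold that in many members binds sugars and in others binds proteins or lipids. CLEC-2, the product of Clec1b, is best known as the platelet receptor for podoplanin, a membrane protein of LECs, and their contact helps keep blood and lymph vessels separate. CLEC4G, also called LSECtin, is a glycan-binding lectin of the sinusoidal endothelium of liver and lymph node. CLEC1A, or MelLec, recognises the melanin of fungal spores and is made by endothelial and myeloid cells. CLEC14A is an endothelial surface protein of the group that also holds CD93, thrombomodulin and endosialin, and it binds the matrix protein multimerin 2. Clec2d encodes Clr-b, a ligand through which many cells restrain natural killer cells.

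RefSeq start sites on GRCm38.p6 could be matched for 4 of the 5 genes, and Clec1a is named only. The 250 bases upstream of the start are shown for both genes that changed, Clec1b and Clec4g, and for Clec14a, which did not pass the test. They are written 5′ to 3′ on the strand of the gene, and capitals mark matches to the motifs searched. Clec1b lies on the plus strand at chr6:129397047-129397296, Clec4g on the minus strand at chr8:3720652-3720901, and Clec14a on the minus strand at chr12:58269259-58269508. The GENCODE span of Clec14a used below reaches 58269290, beyond the RefSeq start, so part of its window lies inside that span.
Clec1b: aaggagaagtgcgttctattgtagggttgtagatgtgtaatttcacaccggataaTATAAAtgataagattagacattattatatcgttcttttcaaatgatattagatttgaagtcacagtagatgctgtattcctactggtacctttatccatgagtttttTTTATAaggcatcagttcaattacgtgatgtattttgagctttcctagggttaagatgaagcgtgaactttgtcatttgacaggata
Clec4g: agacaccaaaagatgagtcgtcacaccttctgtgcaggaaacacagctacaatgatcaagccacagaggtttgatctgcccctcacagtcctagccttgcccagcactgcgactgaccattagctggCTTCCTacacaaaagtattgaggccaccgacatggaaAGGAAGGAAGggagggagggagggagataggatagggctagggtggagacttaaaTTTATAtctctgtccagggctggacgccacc
Clec14a: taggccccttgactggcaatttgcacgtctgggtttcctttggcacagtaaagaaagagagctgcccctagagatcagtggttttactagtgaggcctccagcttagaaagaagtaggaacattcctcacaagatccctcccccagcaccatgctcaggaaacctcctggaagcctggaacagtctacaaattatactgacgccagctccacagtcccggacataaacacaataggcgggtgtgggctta
GC content was 33.2% in the Clec1b window, 52.0% in that of Clec4g and 50.8% in that of Clec14a, against a median of 52.4% over 32841 RefSeq windows of the same length. On both strands 6 motifs were searched: the NF-kB consensus by name, TGANTCA for AP-1, AGGAAG for ETS factors, AACAAT for SOX factors, AGATAA for GATA factors and TATAAA for the TATA box. AGGAAG stood 86 and 82 bases upstream of the Clec4g start, as overlapping matches, and its reverse complement 123 bases upstream. This motif was found in 29.5% of all windows. TATAAA stood 195 bases upstream of the Clec1b start, with its reverse complement 87 bases upstream, and the Clec4g window held the reverse complement 31 bases upstream. It was found in 12.4% of windows. The other 4 motifs, found in 3.9% (NF-kB), 6.75% (AP-1), 9.43% (SOX) and 9.99% (GATA) of windows, had no match in the 3 printed windows, and Clec14a had no match to any of the 6. The Clec2d window, at chr6:129180365-129180614 with 44.8% GC, had none either. A match to a short motif describes the letters and does not show a binding site.

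Library totals were 52839375 to 70171307 counts, and levels are given as CPM, a gene's counts relative to the TMM-scaled library total. By the unscaled totals, 1 CPM corresponds to 52.8 to 70.2 counts. Of the 9 lymphatic markers listed, all 9 were detected well enough to be tested, 2 were higher in the knockout (Ccl21a and Mmrn1) and Prox1, the lymphatic identity factor, was lower (1459 ± 103 to 868 ± 22.9 CPM). The deletion itself cannot be read from these libraries, since Tnfsf11 was near the detection limit and the Cre is not aimed at LECs. Summed macrophage markers were 126 to 143 CPM in controls and 85.5 and 153.5 in the knockouts, and summed T and NK cell markers were 20.4 to 24.0 CPM and 21.1 and 23.1. Of 8 tested T and NK cell markers 0 were higher and 1 was lower. Dendritic cell markers summed to more, at 293 to 363 CPM in the controls and 279 and 320 in the knockouts. B and plasma cell markers summed to 406 to 488 CPM in the controls and 384 and 402 in the knockouts. Of 10 tested genes in each list, 0 dendritic cell markers were called and 1 B and plasma cell marker was lower. Summed fibroblastic reticular and mesenchymal markers, 12 genes of which 0 were called, were 507, 520.5 and 367 CPM in the controls and 1110.0 and 519 in the knockouts. Knockout 1 thus stood above the other libraries in these markers. It was also the lowest library for Clec1b, Clec4g, Clec1a and Clec14a, while Clec2d was lowest in knockout 2. The part of these markers in the lectin values was not tested. Of 16 tested blood endothelial markers 7 were higher and 0 lower, with Cd34 at 18.8 ± 5.46 and 71.9 ± 12.2 CPM and Gpihbp1 at 6.92 ± 0.25 and 17.1 ± 1.08 CPM. In bulk RNA, fewer cells of a type and less RNA per cell cannot be told apart.

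Of the 5 lectin genes, Clec1b and Clec4g were lower in the knockout and 0 were higher. Over all 15874 genes tested, 7.24% changed, with 3.99% lower and 3.25% higher by the same test, edgeR's quasi-likelihood test with Benjamini-Hochberg adjustment at 0.05. Both knockout libraries lay below all 3 controls for 3 of the 5 genes, namely Clec1b, Clec4g and Clec2d, and for 22.5% of all tested genes. The median log2 fold change, knockout minus control, was -0.36 over the 5 genes and -0.0015 over all genes, whose central range from the 5th to the 95th percentile was -0.98 to 1.09.

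**Figure D1:**
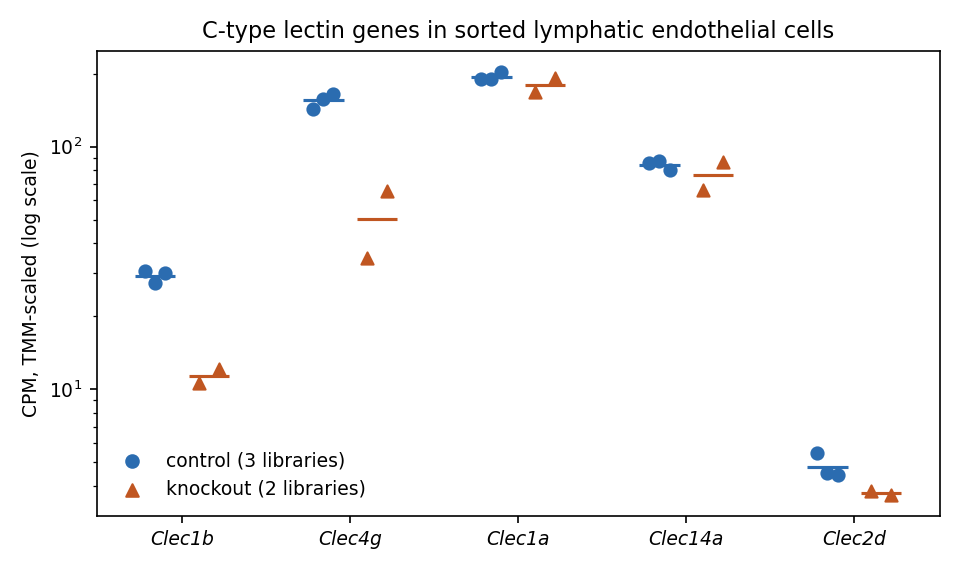
CPM (y axis, log scale) of the 5 lectin genes in the 3 control (circles) and 2 knockout (triangles) libraries, with a short line at each group mean. For Clec1b the knockouts sit at 10.6 and 12.1 CPM below controls of 27.4 to 30.7, while the groups overlap for Clec1a and Clec14a.

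Clec1b (ENSMUSG00000030159, mm10 chromosome 6, 129397297 to 129409335, plus strand) had 2177, 1710 and 1560 reads in the controls and 581 and 704 in the knockouts. As CPM these were 30.7, 27.4 and 30.0 in the controls and 10.6 and 12.1 in the knockouts. The knockout libraries lay close together and well below every control. The mean went from 29.4 ± 1.73 (SD, n = 3) to 11.4 ± 1.05 CPM (SD, n = 2), or 38.7% of the control level in the fit. The log2 fold change was -1.37 ± 0.12 (SE) with a 95% interval of -1.65 to -1.09, and the edgeR adjusted p was 0.0095, the rank 16 of all tested genes by p. Without control 3 the adjusted p was 0.065, with a fold change of -1.36. At its 3′ end Clec1b overlaps Clec9a on the same strand over 3.61% of its exon bases, and how reads there were assigned is not known.

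Clec4g (ENSMUSG00000074491, chromosome 8, 3707064 to 3720651, minus strand) had 10148, 9812 and 8585 reads in the controls and 1894 and 3830 in the knockouts. The CPM values were 143, 157 and 165 in the controls and 34.6 and 65.8 in the knockouts. Both knockouts were below all controls, and they differed between themselves more than the controls did. The mean went from 155 ± 11.3 to 50.2 ± 22.1 CPM, 32.4% of control in the fit. The log2 fold change was -1.63 ± 0.26 (95% interval -2.24 to -1.01, edgeR adjusted p = 0.022), and 1.87% of tested genes had a fold change as low or lower. The call was lost without control 1, 2 or 3 (adjusted p of 0.061, 0.069 and 0.095), and the fold change was -1.24 without knockout 1 and -2.17 without knockout 2. Gm16553, on the opposite strand across 5.93% of the Clec4g exon bases, had 0 to 8 reads per library.

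Clec1a (ENSMUSG00000033082, chromosome 6, 129424772 to 129452000, minus strand) was at 190.3, 190.1 and 203 CPM in the controls and 168 and 191 in the knockouts. One knockout was therefore inside the control range and the other below it. The means were 195 ± 7.66 and 179.6 ± 16.7 CPM, and the log2 fold change was -0.12 ± 0.10 (95% interval -0.34 to 0.11, adjusted p = 0.49). That interval does not reach the fold change of Clec1b or Clec4g. The gene had 9187 to 13511 reads per library.

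Clec14a (ENSMUSG00000045930, chromosome 12, 58264720 to 58269290, minus strand) was at 85.4, 87.5 and 79.8 CPM in the controls and 66.2 and 86.7 in the knockouts. The groups overlapped, with knockout 1 the lowest library. The means were 84.2 ± 3.97 and 76.5 ± 14.4 CPM, with a log2 fold change of -0.14 ± 0.13 (95% interval -0.44 to 0.16, adjusted p = 0.54). Without knockout 1 the fold change was 0.035. Blood vessels also express this gene, and the summed blood endothelial markers were 4338 to 4735 CPM in the controls and 4838 and 5565 in the knockouts. Their part in the Clec14a values was not tested.

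Clec2d (ENSMUSG00000030157, chromosome 6, 129180615 to 129186534, plus strand) had the fewest reads, 386, 282 and 230 in the controls and 208 and 214 in the knockouts. This gave 5.44, 4.52 and 4.43 CPM in the controls and 3.8 and 3.68 in the knockouts. Both knockouts were the lowest libraries, by less than the range among the controls. The means were 4.79 ± 0.558 and 3.74 ± 0.0847 CPM, and the log2 fold change of -0.36 ± 0.19 did not pass (95% interval -0.82 to 0.10, adjusted p = 0.29). Clec2d shares 1.98% of its 50-base exon windows with Clec2g and Clec2i, which had at most 1 and 20 reads in a library.

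**Figure D2:**
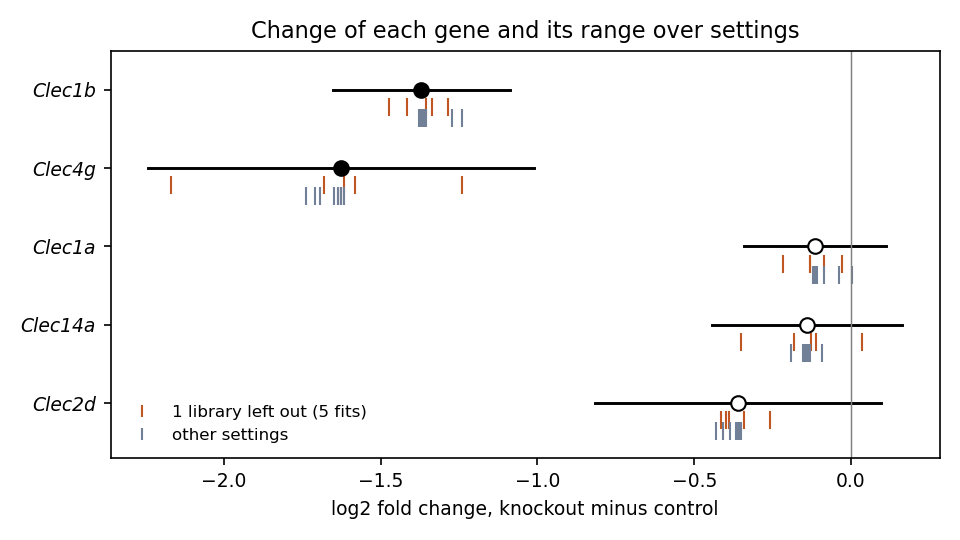
Log2 fold change, knockout minus control, of the 5 lectin genes (x axis) with 95% intervals from edgeR, filled where the adjusted p is under 0.05. Ticks beneath each gene mark its fold change with 1 library left out (orange) and under the other settings (grey). The intervals of Clec1b (-1.65 to -1.09) and Clec4g (-2.24 to -1.01) lie below 0, and those of Clec1a, Clec14a and Clec2d include 0.

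Ratios within each library compared the genes with one another, over 10 pairs. The log2 ratio of Clec1b to Clec1a, which lies in the same cluster, was -2.63, -2.79 and -2.76 in the controls and -3.98 and -3.98 in the knockouts. The ratio of Clec4g to Clec1a went from a mean of -0.33 to -1.91. Neither set of values overlapped between the groups. Both had a two-sided p of 0.2 in an exact permutation test (0.33 after Benjamini-Hochberg adjustment over the 10 pairs). The test takes the two-sided p as 2 times that of the smaller tail. In this form 0.2 is the smallest p that 3 libraries against 2 allow. The log2 ratio of Clec1b to Clec4g did overlap, at -2.22, -2.52 and -2.46 in the controls and -1.70 and -2.44 in the knockouts (exact permutation p = 0.4, adjusted 0.5). The other 4 pairs that did not overlap each set Clec1b or Clec4g against Clec14a or Clec2d, at the same p. Every pair without overlap thus set a gene called lower against one not called, so these ratios restate the fold changes above.

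Levels were compared between genes per kilobase of exon, as RPKM. In the controls the order was Clec4g (63.0 ± 4.59), Clec1a (37.6 ± 1.48), Clec14a (18.4 ± 0.869), Clec1b (5.75 ± 0.338) and Clec2d (3.95 ± 0.46). The control ranges of neighbours in this order did not overlap down to Clec2d, which overlapped the dendritic cell lectin gene Clec9a (3.66 ± 0.481). Among tested genes of the whole table, control RPKM placed Clec4g at percentile 95.4, Clec1a at 92.0, Clec14a at 84.6, Clec1b at 65.3 and Clec2d at 58.2. In the knockouts Clec1a came first (34.7 ± 3.22 RPKM), ahead of Clec4g (20.4 ± 8.98) and Clec14a (16.7 ± 3.16). Clec1b, at 2.23 ± 0.207 RPKM, came after Clec9a (3.11 ± 0.70) and Clec2d (3.08 ± 0.0698). Clec4g made up 46.8, 49.6 and 50.3% of the summed RPKM of the 5 genes in the controls and 21.2 and 30.4% in the knockouts. The 5 genes together held 94.3 to 94.7% of all Clec CPM in the controls and 91.4 and 94.2% in the knockouts.

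**Figure D3:**
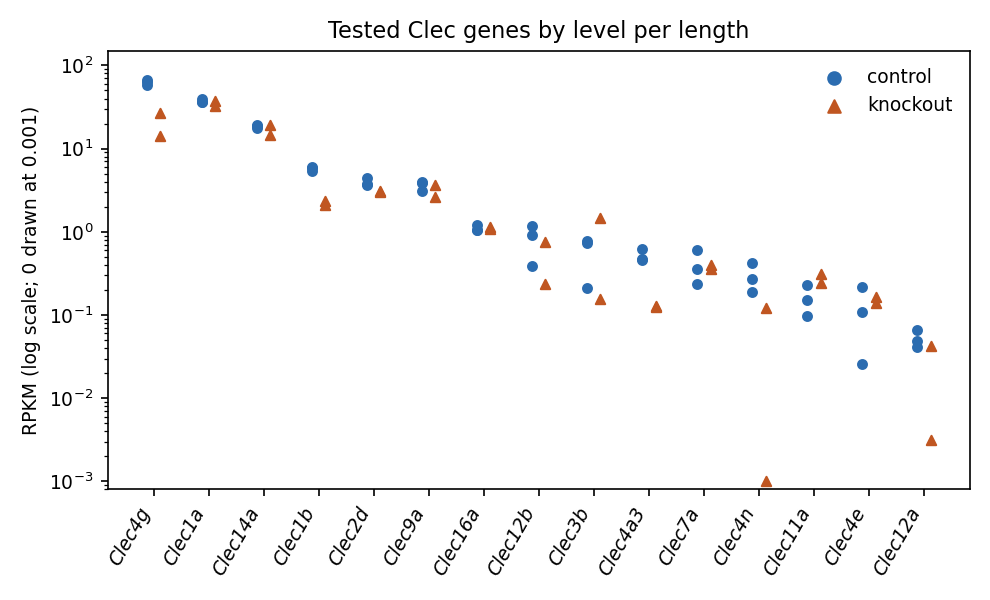
RPKM (log axis, with 0 drawn at 0.001) of every tested Clec gene in each library, ordered by control mean. Clec4g, Clec1a and Clec14a stand above the rest, and the Clec4g and Clec1b knockout libraries sit below their controls.

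Of the 25 other Clec genes, 10 were tested, 0 were higher and 1 was lower, Clec4a3, a myeloid receptor gene with 58, 39 and 32 reads in the controls and 9 and 10 in the knockouts. Its log2 fold change was -2.02 ± 0.47 at an edgeR adjusted p of 0.04996, and no fit that left out a library kept that call (adjusted p 0.075 to 0.15). The macrophage markers Csf1r (1.5 ± 0.346 to 0.251 ± 0.161 CPM) and Mpeg1 (2.74 ± 0.807 to 0.568 ± 0.0744 CPM) were lower at similarly low levels. They were the 2 lower genes of 13 tested macrophage markers, of which Adgre1 (F4/80) was higher, with 0 reads in each control and 15 and 20 in the knockouts, at least 19.2-fold against a floor of 3 reads over the group, a call lost in each of the 5 fits that left out a library. The part of these markers in the Clec4a3 difference was not tested. The 15 Clec genes that were not tested had at most 20 reads in any library, and 2 had 0 reads in all.

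Clec1b, Clec1a and Clec2d lie in the same lectin cluster of chromosome 6. Within 250 kb of Clec1b there were 17 other genes, of which 13 were tested, 1 was higher and 0 lower. Clec1b lies between Clec12b and Clec9a, and Clec9a showed 10.2, 13.1 and 12.8 CPM in the controls and 11.9 and 8.61 in the knockouts (-0.23 ± 0.19, adjusted p = 0.49). The gene that was higher was Olr1, which encodes LOX-1, an endothelial receptor for oxidised lipoprotein with a C-type lectin domain. It had 147, 151 and 170.5 CPM in the controls and 285 and 256 in the knockouts (0.79 ± 0.10, adjusted p = 0.0147). Clec1b and Olr1, with Clec9a, Clec1a and Clec7a between them, thus moved in opposite directions. Around Clec4g on chromosome 8, 16 of 23 other genes within 250 kb were tested, 0 were higher and only Stxbp2 was lower (-0.58 ± 0.12, adjusted p = 0.043). Cd209a, a lectin gene in that window, had 8, 11 and 16 reads in the controls and 0 and 0 in the knockouts, at least 7.11-fold lower against a floor of 3 reads over the group, but its adjusted p was 0.055.

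**Figure D4:**
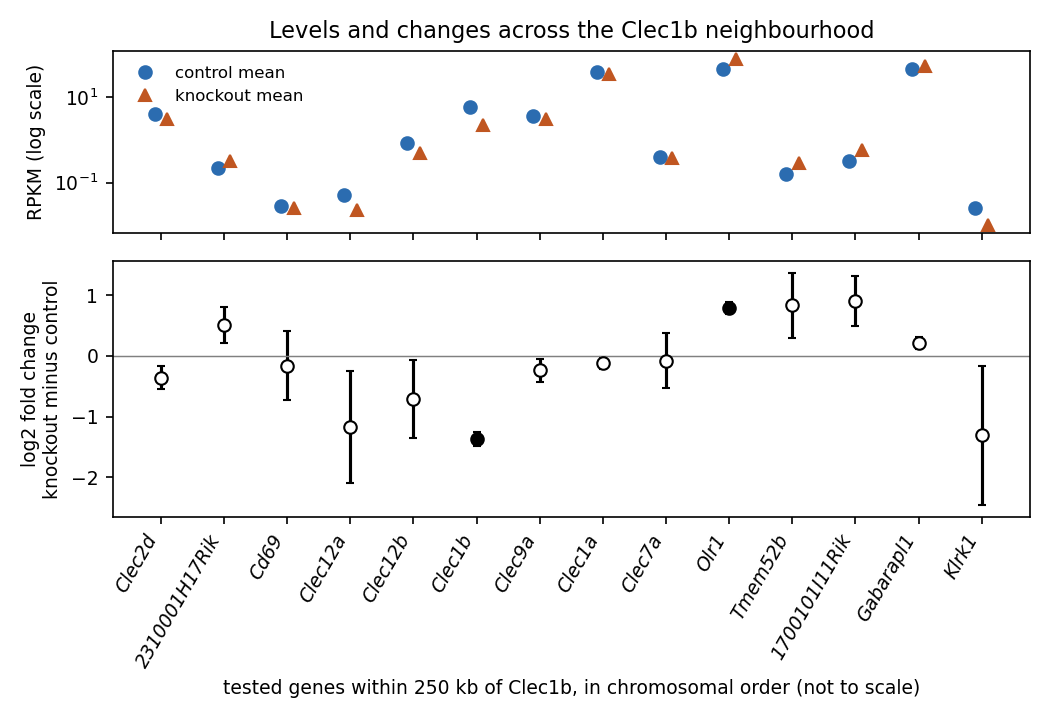
Mean RPKM of each group (upper panel, log axis) and log2 fold change with SE (lower panel) of the tested genes within 250 kb of Clec1b, in chromosomal order and not to scale, with filled points where the adjusted p is under 0.05. Clec1b is the gene below 0 that passed the test (-1.37) and Olr1 the gene above 0 that passed (0.79).

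Genes whose profile over the 5 libraries was most like that of Clec1b were found by root mean square distance of log2 CPM centred on each gene's mean. They were Dock10 (0.0727), Col4a5 (0.076), a basement membrane collagen, the prothrombin gene F2 (0.0829) and Zfp235 (0.0906), against 0.688 for the median of 10722 candidates. Dock10 was at 166, 146 and 163 CPM in the controls and 58.0 and 74.3 in the knockouts. Closest to Clec4g were Rab36 (0.105), Slit1 (0.124), the complement C5 gene Hc (0.132) and Pkd1l1 (0.138), against a median of 0.893. Hc was at 93.1, 78.9 and 86.7 CPM in the controls and 18.8 and 34.3 in the knockouts. Like Clec4g, it was lowest in knockout 1. The distance between Clec1b and Clec4g was 0.301 and that between Clec1a and Clec14a 0.102. These profiles share the same 5 libraries and their group difference, so the distances are a description.

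The podoplanin and CLEC-2 signalling list held 29 tested genes, of which 3 were higher and 3 lower (median log2 fold change 0.27). Pdpn, the gene of the CLEC-2 ligand and a marker used in the sort, was at 104, 88.4 and 97.3 CPM in the controls and 124.5 and 100.1 in the knockouts (0.22 ± 0.12, adjusted p = 0.31). Syk, the kinase that CLEC-2 signals through, was at 1.38 ± 0.401 CPM in the controls and 2.48 ± 1.08 in the knockouts (adjusted p = 0.22). The lower genes were the phosphoinositide 3-kinase subunit genes Pik3cd (-1.18 ± 0.12) and Pik3cg (-0.75 ± 0.14) and the exchange factor gene Vav2 (-0.63 ± 0.14). Higher were the tetraspanin gene Cd9 (1.24 ± 0.13) and the ezrin gene Ezr (0.56 ± 0.09), both of podoplanin partners, and the GTPase gene Rhoc (0.51 ± 0.08). The other 23 tested genes did not pass, and Cd44, Msn, Rdx and Rhoa, also on the list, were not called.

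Since platelets are the main known source of Clec1b, their markers were read beside it. Of 15 other platelet and megakaryocyte markers, 11 were under 1 CPM in every library, at most 0.513 CPM. The collagen receptor gene Gp6 had 0 reads in all libraries and Ppbp, an abundant platelet transcript, 0 to 7, while Clec1b had 581 to 2177. Of the 6 tested, 0 were higher and 2 lower: the platelet factor 4 gene Pf4 (18.5, 11.4 and 16.1 CPM to 1.99 and 5.00, -2.13 ± 0.41) and Gp1ba (-0.99 ± 0.18). The summed markers without Clec1b and Itga2b were 57.2 to 78.7 CPM in the controls and 54.4 and 44.6 in the knockouts. Itgb3 was the highest marker in this sum in every library, at 35.3 to 52.8 CPM, so the sum mostly follows that gene. Itga2b, which LECs of the node also express, was far above the rest at 1394 to 1958 CPM in the controls and 982 and 1241 in the knockouts (-0.61 ± 0.18, adjusted p = 0.085). The part of these markers in the Clec1b difference was not tested.

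The CLEC4G and sinusoidal endothelium list held 17 tested genes, of which 0 were higher and 5 lower (median -0.57). They were the mannose receptor gene Mrc1, itself a C-type lectin (218, 215 and 167 CPM to 56.1 and 64.5, -1.73 ± 0.15), Oit3 (-2.23 ± 0.23), the scavenger receptor genes Stab2 (-0.79 ± 0.10) and Marco (-1.51 ± 0.26), and the transcription factor gene Gata4 (-0.98 ± 0.20). Marco was at 538 CPM in knockout 1 and 973 in knockout 2, the same order as Clec4g, but 2 libraries allow only 2 orders. Bmp2 (-1.28 ± 0.31, adjusted p = 0.056) and the hyaluronan receptor gene Lyve1 (-0.57 ± 0.18, adjusted p = 0.11) had both knockouts below all controls without passing. The list had 3, 2 and 1 lower genes without control 1, 2 and 3.

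Among 28 tested genes for other proteins with a C-type lectin domain, 1 was higher (Olr1) and 3 were lower (median 0.07). Beside Mrc1, which stands in both lists, these were its relatives Pla2r1 (6.83 ± 0.696 to 1.82 ± 0.0279 CPM, -1.90 ± 0.20) and Ly75 (-0.69 ± 0.14), the genes of a phospholipase receptor and of the endocytic receptor DEC-205. The remaining mannose receptor family gene on the list, Mrc2, was at 0.331 ± 0.263 CPM in the controls and 0.599 ± 0.15 in the knockouts (adjusted p = 0.5).

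Of 16 tested genes around CLEC14A, 6 were higher and 1 lower (median 0.35), while Clec14a itself did not pass. The ligand gene Mmrn2 was at 567 ± 15.1 CPM in the controls and 771 ± 6.54 in the knockouts (0.44 ± 0.09, adjusted p = 0.036), and its relative Mmrn1, a lymphatic marker, was higher too (1.56 ± 0.25). Hspa1a (0.74 ± 0.16) and Hspa1b (0.69 ± 0.10), near-identical copies of a heat shock gene whose reads may be split between them, were higher, as were the GTPase gene Rhoj (0.99 ± 0.17) and the junction gene Esam (0.88 ± 0.09). The lower gene was Kdr, a vascular growth factor receptor (-0.70 ± 0.11). Hspg2, which encodes the matrix ligand perlecan, was at 259 ± 43.9 and 130 ± 43.1 CPM (-1.0 ± 0.23, adjusted p = 0.051), and the CLEC14A relative Cd93 at 46.3 ± 16 and 80.9 ± 5.84 CPM (0.81 ± 0.27, adjusted p = 0.11).

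Of 10 tested genes for CLEC2D receptors and inducers, 0 were higher and only the innate sensor gene Tlr4 was lower (-0.86 ± 0.13, median of the list -0.18). Klrb1b, the inhibitory receptor gene for Clr-b on natural killer cells, had 0 to 2 reads per library. Klrb1f, a gene of the same receptor family that lies in the same cluster, was at 79.4, 186 and 115 CPM in the controls and 379.7 and 223 in the knockouts (1.25 ± 0.36, adjusted p = 0.084). Of 20 tested genes of RANK and NF-kB signalling, 0 were higher and 2 lower, Rel (-0.79 ± 0.11) and Traf3 (-0.50 ± 0.10), with a median of -0.03.

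**Figure D5:**
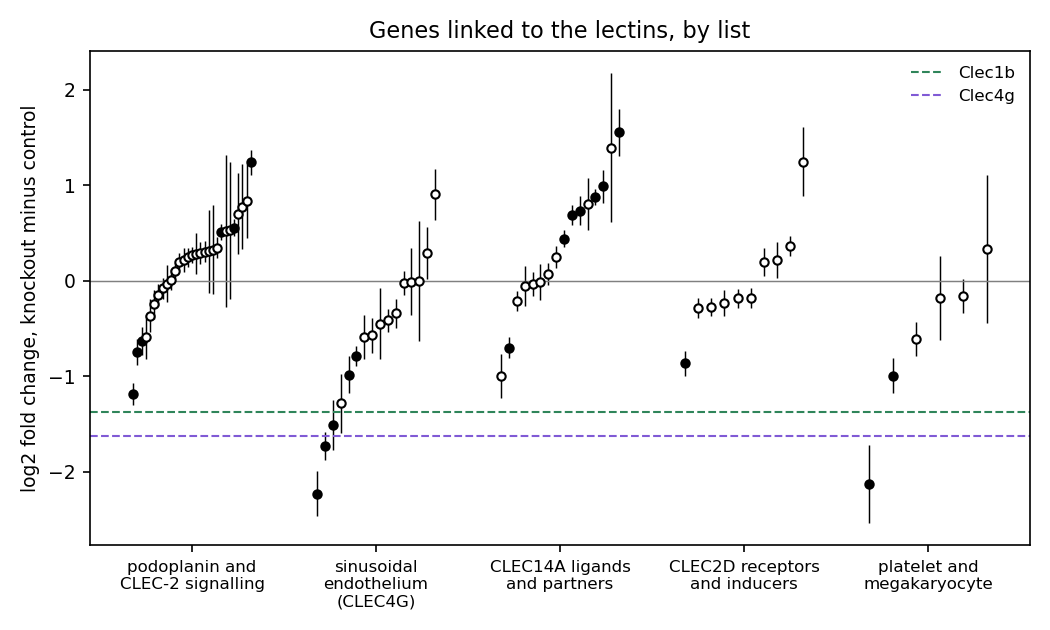
Log2 fold change, knockout minus control, of tested genes in the lists for Clec1b, Clec4g, Clec14a and Clec2d and among platelet markers. Bars give the SE, filled points mark an edgeR adjusted p under 0.05, and dashed lines stand at Clec1b and Clec4g (Cd209a, with 0 knockout reads, is not drawn). In the CLEC4G and sinusoidal list all 5 filled points lie below 0, and in the CLEC14A list 6 of 7 lie above it.

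Of the 44 genes reported here as changed, Clec1b and Clec4g included, 43 lost the call without control 3, when 2 genes were higher and 9 lower over the whole table. Mrc1 kept it in each fit that left out a library.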

How the data were processed

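LECs were sorted from lymph nodes, and per the labels' protocols 4 ng of RNA went into SMART-Seq v4 cDNA synthesis (10 cycles). Nextera XT libraries followed from 600 pg of cDNA (12 cycles) and were read as single 50-base reads. The kits mark neither strand nor single molecules, so amplified copies are counted as separate reads.

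The deposited values are raw read counts per Ensembl gene, per the file headers. Named in the submitters' processing notes are mm10, HTSeq 0.6.1, Bowtie2 2.1.0, TopHat2 2.0.14 and bcl2fastq 2.17.1.14. Not given in the sources used here are tool settings, annotation release and the handling of multi-mapping reads.

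Of 27843 genes, 27648 were matched by identifier to GENCODE M21, which gave symbols, positions (1-based) and merged exon lengths. In R 4.3.3, edgeR 4.0.16 kept genes by filterByExpr (minimum count 10), scaled library sizes by TMM (factors 0.974 to 1.028) and ran the robust quasi-likelihood F test in its legacy form, without a replicate block. Adjusted p-values are Benjamini-Hochberg over 15874 genes with 0.05 as the threshold. SE is the log2 fold change over the square root of F. RPKM is TMM-scaled CPM per kilobase of exon. The fit was tested on simulated data. Libraries of the same group differed by more than counting noise, so none is a copy of another in its group. Control and knockout libraries were not compared in this way.

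The 5 genes and all gene lists were chosen with earlier results of these data known. The naming rule took from each list up to 4 called genes with the smallest p. It added the 4 most similar profiles for each called lectin among genes with a mean log2 CPM of at least 1. Left out here are its blood endothelial genes other than Cd34 and Gpihbp1. The 1 lower gene each of the neutrophil and monocyte, B and plasma cell, and T and NK cell lists is also not named. Pik3cg, Vav2, Gata4, Hspa1a, Mmrn2, Rhoj, Stxbp2 and the named genes that did not pass, other than the 5 lectins and Slit1, are outside the rule and were picked with their values known. Alternatives were RLE size factors, library totals, no filter, 1 CPM in 2 libraries, DESeq2 1.42.0, limma-voom 3.58.1, a replicate block, a length and GC offset, the offset with the block, and each library left out. The newer edgeR form was added after seeing the data.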

Additional observations from a re-analysis of the deposited data

How the results depend on the processing

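Clec1b and Clec4g kept their direction in all alternatives run, and these alone of the 5 genes passed under RLE size factors, library totals, no filter, 1 CPM in 2 libraries, DESeq2, limma-voom, the length and GC offset and the newer edgeR form. The replicate block gave -1.35 for Clec1b (edgeR adjusted p = 0.087) and -1.65 for Clec4g (adjusted p = 0.089), and the offset with the block -1.24 and -1.74 (adjusted p = 0.083 for both), with 0 of the 5 genes called in either. Over all genes, deviations from the group mean were nearly uncorrelated between same-numbered libraries (correlations 0.048 and -0.052). With 2 knockouts, their deviations from the group mean mirror each other, so these correlations are not independent. They cannot decide whether same-numbered libraries shared a litter or day, which the labels do not state. Leaving out each library gave -1.47 to -1.28 for Clec1b, -2.17 to -1.24 for Clec4g, -0.35 to 0.035 for Clec14a and 0 to 2 lectins called lower. Clec14a changed sign without knockout 1 (0.035), and Clec1a under the offset with the block (0.0017), both far from the threshold. Over all genes, 516 higher and 634 lower genes became 1254 and 1466 with DESeq2, 0 and 0 with the replicate block, 0 and 3 with the offset and block, and 408 and 330 with the offset alone. They were 2 to 784 higher and 9 to 1125 lower when each library was left out. A fit without a knockout library assumes that the lone knockout varies as the controls do. Fits with fewer libraries or with the block have fewer degrees of freedom by construction, and other causes of lost calls were not tested. Of the 5 genes, Clec2d had the fewest reads, 208 to 386 per library. The untested Clec genes had at most 20 in a library.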
